A study of Vitis vinifera with 6 samples.

Results

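Flowers of the seedless mutant were compared with flowers of the seeded wild-type at stage E-L 15 of the modified E-L system, when single flowers stand in compact groups before bloom. The comparison covered every gene model whose mean over the wild-type and mutant libraries was 1 RPM or more, where RPM stands for uniquely mapped reads scaled to a common library size. This gave 18825 of the 28059 gene models of the grapevine annotation (67.1%). These gene models were not chosen by the ratio between the clones. They took 99.8% of the counted reads in each library.

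The series holds 6 mRNA-Seq libraries of *Vitis vinifera* Sangiovese, 1 for each of 2 clones at E-L 15 (flowers), E-L 27 (young berries) and E-L 38 (ripe berries). The wild-type carries seeds, and the mutant is a somatic variant of it without seeds. The mutant therefore stands for 1 variant clone in the same cultivar background. Each library pooled RNA from 3 extractions of 1 biological replicate, so that the sequencing had no replicate check and no test could be made. Real-time PCR of selected genes in the study used both biological replicates. It reported changes between stages within a clone and not the ratio of the clones. Both clones were sampled on the same dates, and a difference in flower age at E-L 15 cannot be told apart from a difference between the clones. Since whole flowers were extracted, fewer cells of a type and less RNA per cell cannot be told apart either.

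In a flower bud the male organs are the stamens, whose anthers hold the pollen mother cells within layers of wall tissue. The innermost wall layer, the tapetum, feeds the developing pollen and supplies lipids, phenolics and enzymes for the pollen wall before it breaks down. Work in Arabidopsis placed a series of transcription factors, acyltransferases, reductases and transporters in this tissue, and plants that lack them are often male sterile. The ovules form in the carpel of the same flower and become seeds only after fertilization.

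The wild-type E-L 15 library held 92582632 reads and the mutant E-L 15 library 87999629 reads, so that 1 read was 0.0108 and 0.0114 RPM. No gene model of the comparison had 3 reads or fewer in either library, and the lowest counts were 28 and 16 reads. Ratios are given as folds of RPM with a 95% counting interval (exact conditional binomial, Clopper-Pearson), which covers counting error only. Over all gene models the interval's upper bound was a median of 1.48 times its lower bound at a mean of 1 to 5 RPM and 1.05 times at 100 RPM or more. The labelled tissue matched its petal and stamen markers, and most seed genes were low. PISTILLATA and AP3, the petal and stamen identity factors, were at 969 and 107 RPM in wild-type flowers and at 854 and 84.4 RPM in mutant flowers. The seed regulator ABI3 and the 7S globulin precursor were at 0.0909 RPM or less in both. Oleosin OLE-2 was at 0.788 RPM in the wild-type and 0.534 RPM in the mutant. The globulin-1 S allele precursor, also a seed storage gene, was higher, at 12.4 and 17.9 RPM.

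A gene model was counted as lower or higher in the mutant when its ratio exceeded 2-fold after 0.5 RPM was added to both values. By this rule 111 gene models (0.590% of those compared) were lower in the mutant and 39 (0.207%) were higher, so that 74% of the differences were towards lower values. This share depended on the threshold, since 320 were lower and 291 higher at 1.5-fold (52.4% lower). The flower libraries otherwise lay close to each other. The log2 ratio of the mutant to the wild-type had a median of -0.02, the middle 90% of gene models lay between -0.37 and 0.38, and 96.8% of them were within 1.5-fold. Together the 111 lower gene models held 7190 RPM in the wild-type and 2469 RPM in the mutant, and the 39 higher ones 250.3 RPM and 682 RPM.

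The large ratios were more often towards lower values too. Over 4-fold there were 31 lower and 10 higher gene models, and over 8-fold 5 lower and 1 higher. For 106 of the lower gene models (0.563% of those compared) and 31 of the higher ones (0.165%) the whole counting interval lay beyond 2-fold. Differences were found at low and at high levels, with a smaller share at a mean of 20 RPM or more than below it. Among 3928 gene models with a mean of 1 to 5 RPM 45 (1.15%) were lower and 13 (0.331%) higher. Among 5109 with a mean of 5 to 20 RPM 38 (0.744%) were lower and 18 (0.352%) higher. Among 7373 with a mean of 20 to 100 RPM 21 (0.285%) were lower and 8 (0.109%) higher. Among 2232 at 100 to 500 RPM 6 (0.269%) were lower and none higher, and among 183 with at least 500 RPM 1 (0.546%) was lower and none higher. The threshold itself separated neighbours with like values. VIT_00s1235g00030, at 6.61 RPM in the wild-type and 3.05 RPM in the mutant, lay just past it, and a MALE STERILITY 5 gene (VIT_07s0005g05720), at 29.3 and 14.5 RPM, lay just short of it. On the other side VIT_14s0006g03150, at 5.10 and 10.9 RPM, was counted, while VIT_13s0019g00420, at 1.57 and 3.58 RPM, was not. The filter on level left out gene models such as 1 with a mean of 0.9997 RPM and kept 1 with 1.001 RPM.

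**Figure D1:**
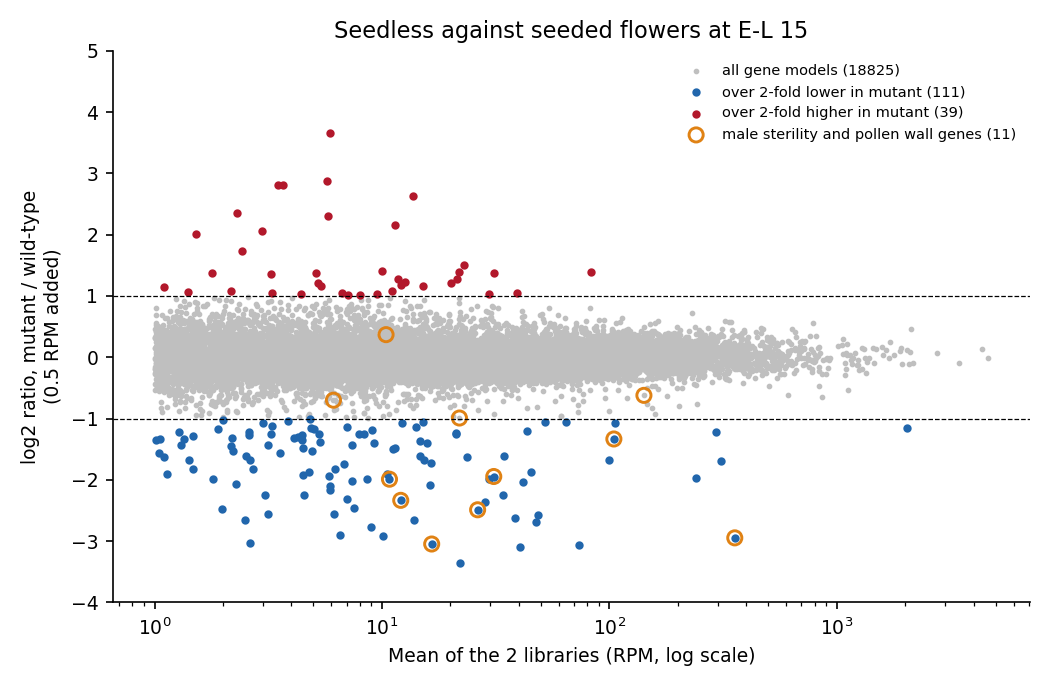
Each point is a gene model, with the mean of the wild-type and mutant E-L 15 libraries (RPM, log axis) on the x axis and the log2 ratio of mutant to wild-type (0.5 RPM added) on the y axis. Blue points are the 111 gene models over 2-fold lower in the mutant, red points the 39 over 2-fold higher, and orange rings the 11 male sterility and pollen wall genes, of which 7 lie below the lower dashed line.

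The 64 genes that the study tabulated as candidates or amplified by real-time PCR were read in 9 lists by function. Since the study chose these genes on the same samples, the lists are not independent evidence of a direction. Of their 64 genes 38 had a mean of at least 1 RPM in flowers. Of these 38, 8 were lower and 1 was higher in the mutant, where 0.590% and 0.207% of all gene models compared were. The male sterility and pollen wall list stood lowest: all 11 genes passed the filter, 7 were lower in the mutant, none was higher, and its median log2 ratio was -1.95 beside -0.02 over all gene models. Summed over the list, the wild-type held 1162 RPM and the mutant 314 RPM, a 3.70-fold difference. A single gene, the chalcone and stilbene synthase gene, held 631 RPM of the wild-type sum and 81.4 RPM of the mutant sum.

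The 3 primer pairs printed here are those with which the study amplified 3 regulators of this list for real-time PCR. They identify the transcripts on chromosomes 1, 17 and 9 whose values follow, each as forward and reverse primer, 5′ to 3′, in lower case because no base is singled out.
MS1 forward: ggcagcaagggtgattgttg
MS1 reverse: agctgcgtcgaaccaagtaa
MYB35 forward: gccgaatgcagatggacaac
MYB35 reverse: ttcctccagaaggctaggga
MYB26 forward: attgaaaccaagcccatcaa
MYB26 reverse: tgagagcctgatgggagact

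Among the regulators of anther development, MALE STERILITY 1 (MS1, VIT_01s0011g06390) had 2771 reads in wild-type flowers (29.9 RPM) and 280 reads in mutant flowers (3.18 RPM), which is 9.41-fold lower (8.32 to 10.7). In Arabidopsis MS1 is a PHD-finger protein that acts late in the tapetum. MYB35 (VIT_17s0000g05400), whose Arabidopsis counterpart is needed for tapetum differentiation, was at 45.1 RPM in the wild-type and 7.63 RPM in the mutant, 5.91-fold lower (5.45 to 6.43). SPOROCYTELESS (VIT_19s0014g03940), which in Arabidopsis starts the formation of the spore mother cells in anther and ovule, was at 7.70 and 4.55 RPM, 1.69-fold lower (1.497 to 1.92), and did not pass 2-fold. MYB26 (VIT_09s0002g01670), which in Arabidopsis directs the wall thickening that opens the anther, was the only gene of the list with a higher value in the mutant. It was at 9.04 RPM in the wild-type and 11.8 RPM in the mutant, 1.31-fold higher (1.19 to 1.43), and did not pass the threshold. The values of these 4 regulators therefore did not all differ in the same direction.

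Enzymes and transporters of the pollen wall were also lower. A chalcone and stilbene synthase gene (VIT_15s0021g02170) took the most reads of the list, with 631 RPM in wild-type flowers and 81.4 RPM in mutant flowers, 7.75-fold lower (7.56 to 7.94). Enzymes of this superfamily make polyketides, among them precursors of the outer pollen wall in Arabidopsis. MALE STERILITY 2 (VIT_08s0007g07100), a fatty acyl reductase of the pollen wall in Arabidopsis, was at 20.5 and 3.67 RPM, 5.59-fold lower (4.97 to 6.31). Glycerol-3-phosphate acyltransferase 1 (VIT_12s0142g00040), an enzyme of glycerolipid synthesis that tapetum and pollen of Arabidopsis need, was at 49.6 and 12.5 RPM, 3.97-fold lower (3.71 to 4.24). ABC transporter G member 4 (VIT_19s0015g00960), of a family that exports lipids and other compounds, was at 150 and 59.3 RPM, 2.53-fold lower (2.45 to 2.62). All 4 intervals lay beyond 2-fold.

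The 3 genes annotated as MALE STERILITY 5, the name of an Arabidopsis gene that male meiosis requires, differed by unequal amounts. VIT_07s0005g05680 was at 17.55 RPM in the wild-type and 4.05 RPM in the mutant, 4.34-fold lower (3.87 to 4.88). Its neighbour VIT_07s0005g05720 was 2.02-fold lower by RPM (1.89 to 2.16) and 1 of the 4 genes of the list that the 2-fold rule with 0.5 RPM added left out. VIT_15s0107g00550 was at 172 and 112 RPM, 1.54-fold lower (1.503 to 1.58). Only reads with a single position were counted, so that values of close copies such as these, and of the synthase genes, are uncertain where the copies share sequence.

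The same genes had far lower RPM in young berries. MS1 was at 0.432 RPM in the wild-type and 0.427 RPM in the mutant at E-L 27, MYB35 at 0.122 and 0.114 RPM, and 4 of the 11 genes had a mean of at least 1 RPM there. Of these 4, the synthase gene was at 3.09 RPM in the wild-type and 0.227 RPM in the mutant and the acyltransferase gene at 2.58 and 0.697 RPM, both again over 2-fold lower. The other two were MALE STERILITY 5 genes, at 1.64 and 2.56 RPM for VIT_07s0005g05720 and at 19.7 and 26.7 RPM for VIT_15s0107g00550, with the higher value in the mutant. The study picked genes of this list by changes between stages in these same libraries, so that their E-L 27 values are no independent check. Of all gene models expressed at E-L 27, 1.96% were over 2-fold lower in the mutant and 0.378% over 2-fold higher.

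**Figure D2:**
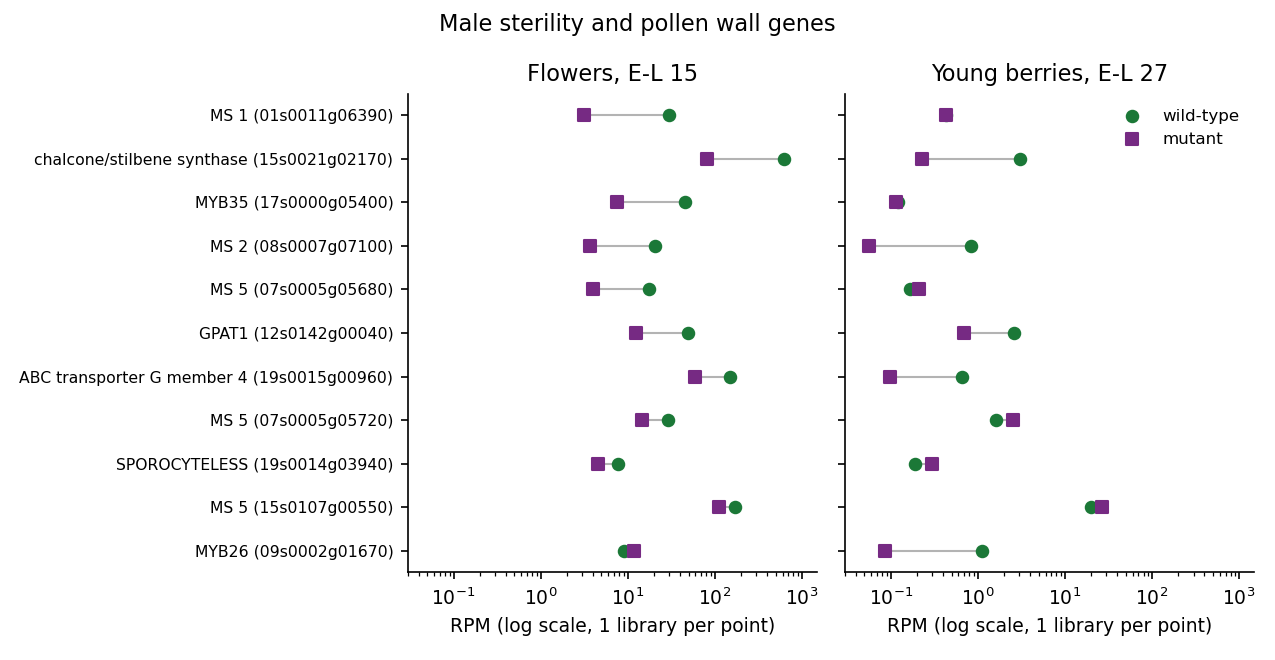
RPM (log axis) of the 11 male sterility and pollen wall genes in the wild-type (circles) and mutant (squares) libraries, in flowers at E-L 15 (left) and young berries at E-L 27 (right), 1 library per point. In flowers the mutant square lies to the left of the wild-type circle for 10 of the 11 genes, MYB26 being the exception.

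Most other lists differed little between the flower libraries. The petal and stamen identity factors were slightly below the wild-type: PISTILLATA was 1.13-fold lower in the mutant (1.12 to 1.15) and AP3 1.27-fold lower (1.23 to 1.31). The 4 genes of the ovule and carpel list that passed the filter all had values a little above the wild-type, with a median log2 ratio of 0.08. Of these, the study describes TEL1 by a function in shoot development and gives ADHESION OF CALYX EDGES no ovule role in its text. The list median is therefore not a measure of ovules alone. SEEDSTICK, the ovule identity factor of Arabidopsis, was at 9.45 RPM in wild-type and 9.82 RPM in mutant flowers. AINTEGUMENTA, which promotes organ growth and ovule integuments in Arabidopsis, was at 13.2 and 13.97 RPM, TEL1 at 20.3 and 21.6 RPM and ADHESION OF CALYX EDGES at 103 and 116 RPM. None of these differed by more than 1.12-fold. The fifth gene of the list, TRANSPARENT TESTA16, had 18 reads in the wild-type and 33 reads in the mutant and was below the filter. In young berries 4 of the 5 genes had a mean of at least 1 RPM, AINTEGUMENTA being the exception. All 4 were over 2-fold lower in the mutant, SEEDSTICK being at 67.4 and 10.7 RPM. The study picked SEEDSTICK and TRANSPARENT TESTA16 among genes that rose from flowers to young berries in the wild-type only, in these same libraries. It picked TEL1 among genes that fell between these stages in the mutant only. ADHESION OF CALYX EDGES is listed because the study amplified it by real-time PCR to check the sequencing of these libraries. The lower values of these 4 genes in mutant young berries are therefore no independent finding. The difference between the stages was not tested.

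Of the pollen tube, actin and water list 5 of 9 genes passed the filter, with a median log2 ratio of 0.05 and none past 2-fold. The aquaporin GAMMA-TIP3/TIP1;3, a water channel of the vacuole membrane, was at 406 and 423 RPM. Fimbrin 2, which bundles actin filaments, was at 14.6 and 17.8 RPM, and the calmodulin-binding protein and wall-associated kinase 4 genes differed by 1.03-fold each. Boron transporter-like protein 4 had the largest difference of the 5, at 15.5 RPM in the wild-type and 10.1 RPM in the mutant, 1.54-fold lower (1.41 to 1.67). Below the filter, the myosin-like protein XIK gene had 44 reads in wild-type flowers and none in mutant flowers, at least 13.9-fold lower against the limit of 3 reads. The study chose XIK among genes expressed in the wild-type and not in the mutant, in these same libraries. Its lack of reads in mutant flowers is therefore no independent finding, and it had none in mutant berries either. A nodulin MtN3 gene, of a family that moves sugars, had 106 and 16 reads, 6.30-fold lower (3.70 to 11.4). FERONIA and the cation/hydrogen exchanger CHX15 had at most 24 reads in either library.

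Among the cell wall genes 3 of 7 passed the filter. The 1,4-beta-mannan endohydrolase gene (VIT_18s0089g00140), an enzyme that cuts mannan in the cell wall, was at 40.7 RPM in wild-type and 3.51 RPM in mutant flowers, 11.6-fold lower (10.3 to 13.1), the lowest ratio of all gene models once 0.5 RPM was added. The 2 pectinesterase genes, which trim pectin, differed by 1.11-fold at most. The beta-expansin EXPB4 gene, which was at 1103 and 1396 RPM in ripe berries, had 31 reads in wild-type flowers and none in mutant flowers.

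All 6 genes of the ethylene and elicitor response list had lower values in mutant flowers and none passed 2-fold, with a median log2 ratio of -0.71. ERF9 (VIT_12s0028g03270), an ethylene response factor, was at 14.2 RPM in the wild-type and 7.26 RPM in the mutant, 1.96-fold lower (1.78 to 2.16). The gene of Avr9/Cf-9 rapidly elicited protein 20, named after a defence response of tomato, was at 17.7 and 9.69 RPM, 1.82-fold lower (1.68 to 1.98). The 4 ERF105 genes were at 1.85, 2.35, 3.12 and 3.23 RPM in the wild-type and at 1.10, 1.18, 1.81 and 3.08 RPM in the mutant. The first 3 of them were 1.68-, 1.99- and 1.73-fold lower, and the interval of the fourth (0.887 to 1.24) included equal values. These 4 genes lie near each other on chromosome 16, and reads shared between them were not counted.

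In young berries the order was turned around, with all 6 genes over 2-fold higher in the mutant and a median log2 ratio of 1.46. There ERF9 was at 30.5 RPM in the wild-type and 62.5 RPM in the mutant, and the elicited protein gene at 36.7 and 77.1 RPM. The ERF105 gene VIT_16s0013g00990 was at 5.02 and 18.6 RPM at this stage. The study chose these 6 genes because they rose from flowers to young berries in the mutant only, in these same libraries. Their change of side is therefore no independent finding, and the difference between the stages was not tested.

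**Figure D3:**
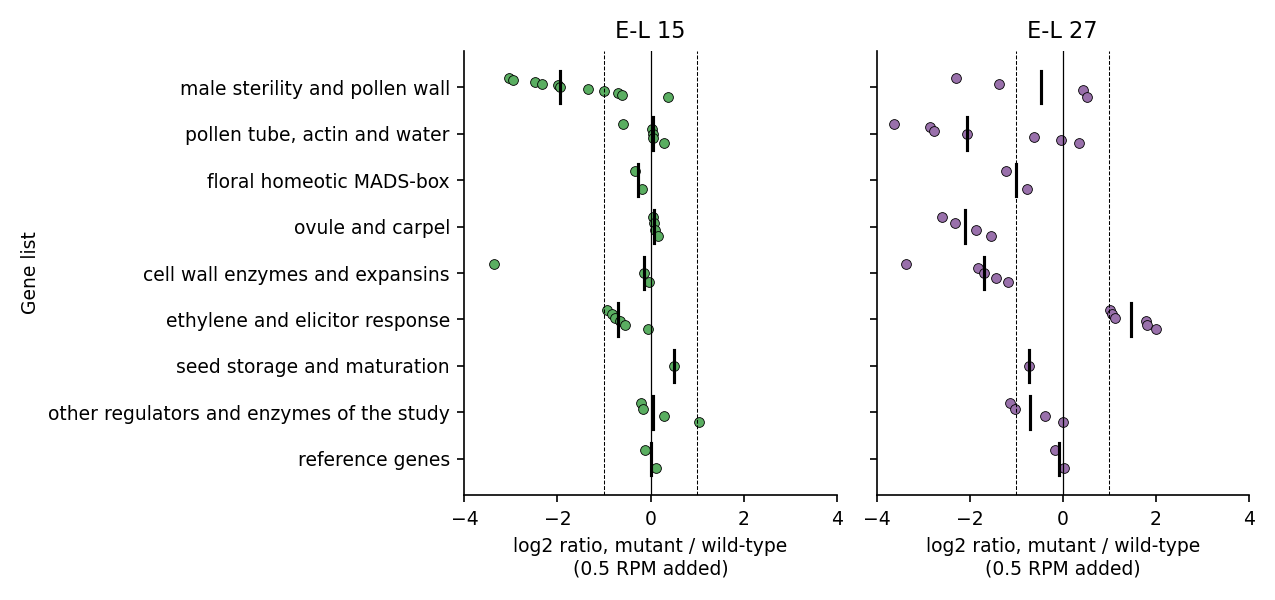
Log2 ratio of mutant to wild-type (0.5 RPM added) of each gene of the 9 lists with a mean of at least 1 RPM at E-L 15 (left) or at E-L 27 (right), with a black bar at the list median and dashed lines at 2-fold. The male sterility and pollen wall list has the lowest median at E-L 15 (-1.95), and the ethylene and elicitor response list lies below 0 at E-L 15 and above 1 at E-L 27.

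Among the other regulators and enzymes 4 of 12 genes passed the filter and 1 was past 2-fold. LATERAL ORGAN BOUNDARIES 41 (LBD41, VIT_14s0006g02950), of a family of plant transcription factors, was at 25.4 RPM in wild-type and 53.1 RPM in mutant flowers, 2.09-fold higher (1.99 to 2.20). It was the only gene of the lists over 2-fold higher, and its interval reached just below 2-fold. In young berries LBD41 was at 12.6 and 5.45 RPM, with the lower value in the mutant, and in ripe berries at 37.4 and 123 RPM, with the higher value in the mutant. Cytokinin dehydrogenase 5, which breaks down cytokinins, was at 31.7 and 38.7 RPM, MYB7 at 7.44 and 6.64 RPM and DTA2 at 3.37 and 2.86 RPM in flowers. Of the 10 seed storage and maturation genes only the globulin-1 S allele precursor passed the filter, at 12.4 and 17.9 RPM, 1.44-fold higher in the mutant (1.33 to 1.55). The other 9 did not exceed 0.788 RPM. The reference genes SAND, at 62.8 and 68.3 RPM, and GAPDH, at 2168 and 2009 RPM, differed by 1.09- and 1.08-fold.

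Of the 20 gene models with the lowest ratios 4 were in the lists by function: the mannan endohydrolase, MS1, the synthase and MYB35. The other 16 were outside these lists and are given by identifier only. They ranged from 3.72 to 132 RPM in the wild-type and from 0.182 to 15.4 RPM in the mutant, and were 5.37- to 28.0-fold lower. VIT_10s0003g02080 differed most by RPM, with 472 reads in wild-type and 16 reads in mutant flowers, 28.0-fold lower (17.1 to 49.5). VIT_12s0028g00070 took the most reads of the 16, at 132 RPM in wild-type and 15.4 RPM in mutant flowers, 8.61-fold lower (8.14 to 9.11). VIT_07s0255g00030 was at 73.0 and 8.10 RPM, 9.01-fold lower (8.34 to 9.75). In the berry libraries 7 of the 20 were below 1 RPM throughout, VIT_10s0003g02080 which had no reads in 3 of the 4 libraries and 0.222 RPM in wild-type young berries, being 1 of them.

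A low level in berries was frequent among all gene models that were lower in mutant flowers. Of the 111, 32 (28.8%) were below 1 RPM in all 4 berry libraries, compared with 554 (2.94%) of all gene models. Below 1 RPM in both E-L 27 libraries were 44 (39.6%), compared with 3.87% of all. VIT_03s0038g01460, at 472 RPM in wild-type and 146 RPM in mutant flowers, was at 0.720 and 0.896 RPM in young berries, and VIT_03s0038g04220, at 385 and 97.8 RPM in flowers, at 2.02 and 0.768 RPM. These gene models and the others named in the next paragraph were chosen after their values were seen. Among the 39 gene models higher in mutant flowers, 1 (VIT_19s0090g00950) was below 1 RPM in all 4 berry libraries.

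For the gene models still expressed in berries the ratio of the clones was often different. Of the 63 lower gene models with a mean of at least 1 RPM at E-L 27, 13 (20.6%) were again over 2-fold lower in the mutant, none was over 2-fold higher, and 33 (52.4%) were within 1.5-fold, where 94.6% of all gene models of the flower comparison were. The share of all gene models of the flower comparison that were lower there was 1.37%. VIT_00s1203g00010 was among the 13, at 9.94 and 1.92 RPM in flowers, 8.05 and 1.32 RPM in young berries and 1.93 and 0.310 RPM in ripe berries, with the mutant over 2-fold lower at each stage. VIT_13s0047g00500 was at 5.73 and 0.557 RPM in flowers and at 8.72 and 1.59 RPM in young berries. In ripe berries 11 of 53 (20.8%) were over 2-fold lower and 11 were over 2-fold higher, where 4.69% and 1.38% of all gene models of the comparison were, and 6.38% and 1.47% of all those expressed at E-L 38. VIT_13s0101g00220 was among those that were higher there, and the only gene model with at least 500 RPM that was lower in flowers. It was at 2821 RPM in wild-type and 1270 RPM in mutant flowers, at 1238 and 1156 RPM in young berries, and at 821 and 2925 RPM in ripe berries.

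**Figure D4:**
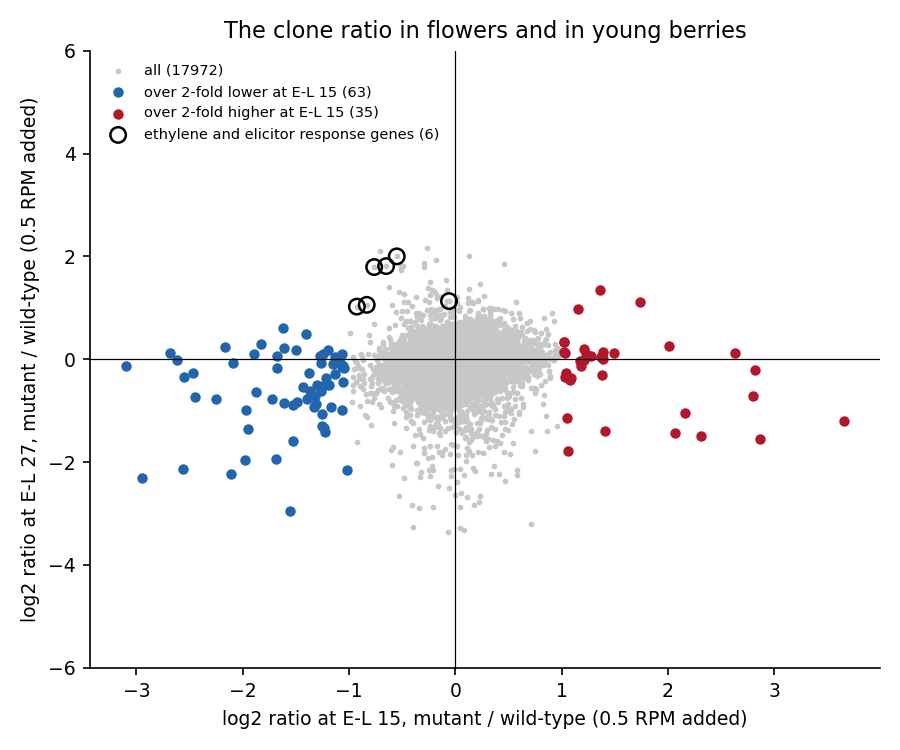
Log2 ratio of mutant to wild-type (0.5 RPM added) in flowers at E-L 15 (x axis) and in young berries at E-L 27 (y axis) for the 17972 gene models with a mean of at least 1 RPM at both stages. Blue points were over 2-fold lower in mutant flowers (63), red points over 2-fold higher (35), and rings mark the 6 ethylene and elicitor response genes, which lie at the upper left.

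The gene models that were lower in mutant flowers were spread over the genome. The chromosome was read from the identifier, in which the digits after the prefix give it, and 00 stands for sequence not placed on a chromosome. Lower gene models were found on every chromosome except chromosome 6, where none of 1000 was lower or higher. Apart from chromosomes 6 and 17 the share was between 0.459% and 1.01%. Higher gene models were unevenly placed: 15 of the 39 were on chromosome 5, which is 1.42% of its gene models, and no other chromosome held more than 3.

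Of these 15, 11 were in a run of neighbouring identifiers on chromosome 5, from VIT_05s0049g00610 to VIT_05s0049g00840. The span holds 19 gene models, of which 13 passed the filter, 11 were higher and 1 was lower in the mutant. None of them is in the lists by function, so that no function is given for them here. The comparison included 127 gene models with the same identifier prefix, and none outside the run was higher. VIT_05s0049g00780 had 41 reads in wild-type flowers (0.443 RPM) and 1002 reads in mutant flowers (11.4 RPM), 25.7-fold higher (18.8 to 36.0), the largest ratio towards the mutant. Its neighbour VIT_05s0049g00770 was at 1.005 and 10.5 RPM, 10.5-fold higher (8.45 to 13.1). VIT_05s0049g00660 was at 3.43 RPM in the wild-type and 23.9 RPM in the mutant, 6.95-fold higher (6.18 to 7.85). Levels in the wild-type were low, with 28 to 356 reads for each of the 11.

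Of the 10 gene models with the highest ratios 9 lay in this run, the other being VIT_19s0090g00950, which had 39 reads in wild-type and 369 reads in mutant flowers, 9.95-fold higher (7.14 to 14.2). The run was not uniform. VIT_05s0049g00760, which lies within it, was at 1.80 RPM in the wild-type and 0.284 RPM in the mutant, 6.35-fold lower (4.15 to 10.1), and VIT_05s0049g00830 was at 1.72 and 1.03 RPM. Just below the filter, VIT_05s0049g00690 had 43 reads in wild-type and 134 reads in mutant flowers. In young berries 10 of the 11 had a mean of at least 1 RPM, and none of these was over 2-fold higher in the mutant while 5 were over 2-fold lower. Of all gene models of the flower comparison 0.300% were higher and 1.37% lower there. VIT_05s0049g00780 was at 2.51 and 0.810 RPM there and VIT_05s0049g00770 at 5.19 and 1.44 RPM. In ripe berries 8 of the 11 had a mean of at least 1 RPM. VIT_05s0049g00660 was again over 2-fold higher in the mutant, at 4.15 and 34.0 RPM, while VIT_05s0049g00720 and VIT_05s0049g00730 were over 2-fold lower. VIT_05s0049g00740, VIT_05s0049g00770, VIT_05s0049g00780 and VIT_05s0049g00840 were 1.51-, 1.81-, 1.65- and 1.69-fold higher, and VIT_05s0049g00610 was 1.25-fold lower. VIT_05s0049g00770 reached 470 and 851 RPM there. Reads with more than 1 position were not counted, so that values are uncertain where gene models of the run share sequence.

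**Figure D5:**
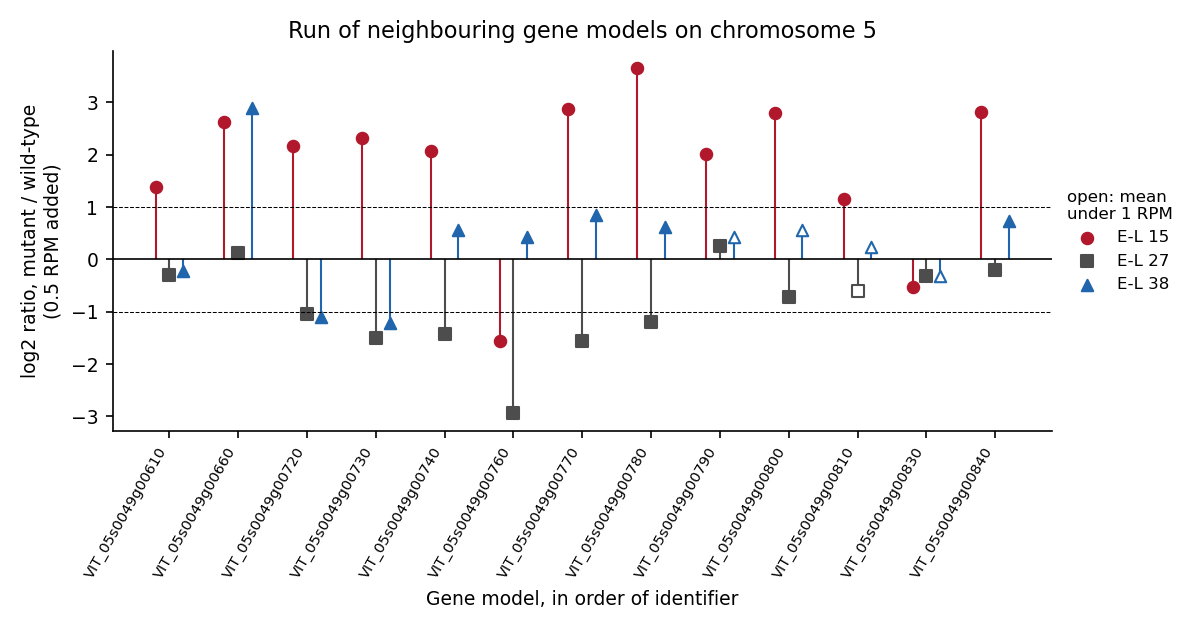
Log2 ratio of mutant to wild-type (0.5 RPM added) of the 13 gene models of the chromosome 5 run that passed the filter, in order of identifier, at E-L 15 (circles), E-L 27 (squares) and E-L 38 (triangles), with open symbols where the mean was under 1 RPM and dashed lines at 2-fold. At E-L 15, 11 of the 13 lie above the upper dashed line and VIT_05s0049g00760 lies below the lower one, whereas at E-L 27 none lies above it.

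The other 28 gene models that were higher in mutant flowers differed less, by 2.07- to 9.95-fold. In young berries 19 of the 25 with a mean of at least 1 RPM were within 1.5-fold between the clones, beside 94.6% of all gene models, and their median log2 ratio was 0.06. VIT_19s0015g00670 took the most reads of these, at 45.8 RPM in wild-type and 120.9 RPM in mutant flowers, 2.64-fold higher, and at 84.5 and 85.1 RPM in young berries. VIT_05s0029g00370 had its high values in flowers, at 12.3 and 30.5 RPM compared with 0.111 and 0.156 RPM at E-L 27. In ripe berries it had 308 reads in the wild-type (3.12 RPM) and none in the mutant, at least 73.7-fold lower. Both were chosen after their values were seen.

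Neighbouring identifiers were also found among the lower gene models, in 2 runs. On chromosome 18 all 5 gene models from VIT_18s0089g00140, the mannan endohydrolase gene, to VIT_18s0089g00190 were lower in mutant flowers, by 4.62- to 14.7-fold. The largest of these ratios was that of VIT_18s0089g00180, with 432 reads in wild-type and 28 reads in mutant flowers (10.003 to 22.33). VIT_18s0089g00190 was at 24.4 and 3.43 RPM, and VIT_18s0089g00170 at 12.1 and 2.63 RPM. In ripe berries 4 of the 5 had a mean of at least 1 RPM and 3 of these were over 2-fold higher in the mutant, VIT_18s0089g00170 being at 0.334 and 7.025 RPM. Of all gene models of the flower comparison 1.38% were higher there. On chromosome 4 the gene models VIT_04s0008g05370, VIT_04s0008g05390 and VIT_04s0008g05400 were lower, the first at 16.04 and 1.92 RPM, 8.35-fold (7.12 to 9.85). VIT_04s0008g05380 between them was at 1.56 and 0.602 RPM, 2.58-fold lower, and did not pass the threshold once 0.5 RPM was added.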

How the data were processed

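mRNA-Seq reads of 6 Sangiovese libraries had been aligned by the authors with BWA to the 12x grapevine genome annotation, and reads with more than 1 position were excluded. The version of BWA is not given in the sources used here. The deposited counts are numbers of uniquely mapped reads for each gene model. The deposited RPM values are these counts scaled to the library's total of such reads, with no division by the length of the gene, so that levels of different genes cannot be ranked by them.

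Gene models with a mean of at least 1 RPM at E-L 15 were compared by the ratio of RPM, and the 2-fold rule used 0.5 RPM added to both values. Intervals are 95% Clopper-Pearson intervals from the read counts. Against a library without reads the fold was computed against 3 reads and is a bound. The scripts were tested on simulated data. Python 3.11.15, numpy 2.4.6, scipy 1.17.1, pandas 2.3.3 and matplotlib 3.10.9 were used, with edgeR 4.0.16 (TMM) and DESeq2 1.42.0 (size factors) in R 4.3.3 for other scalings only.

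Named genes included the 64 genes that the study tabulated as candidates or amplified by real-time PCR, which are a part of those it annotated. Further ones were the gene models with the 20 lowest and 10 highest ratios and those in runs. A run held at least 3 gene models past 2-fold in the same direction within 10 identifiers of each other. The comparison, the lists and the rules were chosen with earlier results of these data known. None of the identifiers matched the reference table at hand, so that names come from the study, no coordinates are given, and further lists by gene description were not analysed here. Alternatives were other scalings, added values, filters, thresholds and equal depth.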

Additional observations from a re-analysis of the deposited data

Results flagged for a closer look

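In 11 of the named gene models the mutant lay on one side of the wild-type in flowers and on the other in young berries, by over 1.5-fold each time once 0.5 RPM was added to both values. The difference between the stages was not tested in any of them, since each clone had 1 library a stage. The study chose LBD41 and the ethylene and elicitor response genes among them by changes between these stages in the same libraries. The chromosome 5 run was picked by its flower ratios. The 11 are therefore not an unselected sample to set against the share over all gene models. Over all 17972 gene models with a mean of at least 1 RPM at both stages 33 (0.184%) did so, 23 from higher in flowers to lower in young berries and 10 the other way.

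Of the chromosome 5 run 6 gene models changed side, with log2 ratios at E-L 15 of 2.16 for VIT_05s0049g00720, 2.31 for VIT_05s0049g00730, 2.06 for VIT_05s0049g00740, 2.87 for VIT_05s0049g00770, 3.66 for VIT_05s0049g00780 and 2.80 for VIT_05s0049g00800. At E-L 27 the same gene models were between 2.01- and 3.79-fold lower in the mutant. LBD41 (VIT_14s0006g02950) had a log2 ratio of 1.05 in flowers and was 2.31-fold lower in young berries.

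Of the ethylene and elicitor response genes 4 changed side the other way. Their log2 ratios at E-L 15 were -0.93 for ERF9 (VIT_12s0028g03270), -0.83 for the Avr9/Cf-9 rapidly elicited protein 20 gene (VIT_12s0134g00240), and -0.76 and -0.65 for the ERF105 genes VIT_16s0013g00990 and VIT_16s0013g01050. In young berries they were between 2.05- and 3.71-fold higher in the mutant. By RPM alone the ERF105 gene VIT_16s0013g00950 did the same, at 1.68-fold lower in flowers and 4.30-fold higher in young berries, but its flower ratio was within 1.5-fold once 0.5 RPM was added.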

How the results depend on the processing

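The counts of 111 lower and 39 higher gene models were 110 or 111 and 39 with DESeq size factors, TMM factors or the median ratio of the E-L 15 libraries, which moved all log2 ratios by at most 0.014. With both libraries at equal depth they were 111 and 40. The number lower was 66 with a mean of at least 5 RPM, 320 at 1.5-fold and 58 at 3-fold. The number higher was 68 with 0.05 RPM added, 291 at 1.5-fold and 11 at 3-fold. Of all differences, 74% were towards lower values as reported, 52.4% at 1.5-fold, 84.1% at 3-fold and 67.5% with 0.05 RPM added. The median log2 ratio of the other regulators and enzymes, 0.06 over 4 genes, was -0.11 when the filter asked for a mean of 0.5 RPM and 0.28 when it asked for 5 RPM, as the filter changes which genes it holds. The medians of the other 7 lists with at least 2 genes past the filter kept their sign under each alternative run, between -1.98 and -1.88 for the male sterility and pollen wall list. No paired analysis was possible because the wild-type and mutant groups at E-L 15 hold 1 library each. With 1 library a side, variation between plants, extractions and library preparations was not measured, and at a mean of 1 to 5 RPM counting error alone spans a median of 1.48-fold.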
